A study of Rattus norvegicus with 9 samples.

Results

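Genes of the extracellular matrix, of the proteases that cut it and of the integrins that hold cells to it were followed in cultured rat sympathetic neurons given bone morphogenetic protein-7 (BMP-7), a growth factor that starts dendrite formation in these cells. The genes were chosen by symbol from the annotation of the array: fibrillar and other collagens, matrix metalloproteinases (MMPs), tissue inhibitors of metalloproteinases (TIMPs), ADAM proteases, laminin chains, integrin chains, and the single genes Fn1, Dcn, Lum, Fbln5, Sparc, Mgp, Lox, Loxl1 and Postn. They number 66 of the 4736 genes that a probe set names alone. One probe set per gene was read, the brightest over the 9 arrays, and 16 of the 66 genes had 2 or more probe sets (95 in all).

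Neurons came from the superior cervical ganglia of embryonic day 21 Holtzman rats. All cultures were grown on collagen I, in serum-free medium with nerve growth factor at 100 ng/ml, and all had been given Ara-C, which kills dividing cells and so depletes glia and fibroblasts. On day 5 the cultures were given medium alone for 24 hr (control), BMP-7 at 50 ng/ml for 6 hr (BMP6h) or BMP-7 at 50 ng/ml for 24 hr (BMP24h), and each of the 3 arrays of a condition measured RNA pooled from several cultures. The first array of each condition was processed in batch 1, with 10 µg of labelled cRNA, and the other 2 in batch 2, with 5 µg.

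The deposited value of a probe set is a log2 brightness, so a difference of 1 is a doubling on the array. It ranks arrays for the same probe set and does not rank genes against each other. Th, the first enzyme of noradrenaline synthesis, read 13.33 to 13.51 on all arrays. It is 1 of 16 measured neuron markers, of which 12 had a lower and 4 a higher mean in BMP24h than in control. Over all genes 47.8% had a lower mean. The steady Th does not show what cells the cultures held. Array medians lay between 6.79 and 6.88. BMP6h replicate 2 stood apart, since 9.99% of its probe sets lay more than 1 log2 unit away from the other 2 BMP6h arrays, and no other array passed 4.21%. Of the 66 genes, 19 lay over 0.5 from the other 2 BMP6h arrays on BMP6h replicate 2, against 13 at most on any other array.

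The extracellular matrix is a meshwork of collagen fibrils, glycoproteins and proteoglycans laid down mainly by fibroblasts and glia, with laminins and network collagens in the basement membrane that sheathes ganglion cells and their axons. MMPs and some ADAMs cut matrix and cell surface proteins, and TIMPs block the MMPs. Lysyl oxidases cross-link collagen and elastin, and integrins are receptors made of an alpha and a beta chain. Sympathetic neurons themselves use integrins to grow on collagen and laminin.

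None of the 66 genes passed an adjusted p of 0.05 in limma in any comparison, for BMP6h against control, BMP24h against control or BMP24h against BMP6h. Their lowest adjusted p was 0.887 for BMP6h against control, 0.323 for BMP24h against control and 0.939 for BMP24h against BMP6h. Before adjustment 2 genes had a p under 0.05 for BMP6h against control, 4 for BMP24h against control and 2 for BMP24h against BMP6h, and the ordinary analysis of variance named in the Methods also left 0 genes after adjustment in each comparison. Among all 4736 genes the adjusted test called 0.0422% for BMP6h against control, 0.211% for BMP24h against control and 0% for BMP24h against BMP6h. With 3 arrays a condition, the differences given here are therefore sizes with their errors, and none of them is a call after adjustment.

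The Methods of the study used a looser rule, which asks for 1.2-fold or more and a p under 0.05 before adjustment. By it, 4 of the 66 genes (6.06%) were lower in BMP24h than in control, against 2.05% of all genes, and 0 were higher, against 1.77% of all genes. The 4 were Dcn, Lum, Mgp and Mmp3. These counts come from the limma fit, and with the ordinary analysis of variance that the Methods used 2 of the 4 stayed past the thresholds, Dcn and Mgp, while Lum and Mmp3 did not. For BMP6h against control, 1 gene was higher (Col1a1, 1.52%, against 0.908% of all genes) and 1 was lower (Dcn, 1.52%, against 0.887%). For BMP24h against BMP6h, 1 gene was lower (Lama3, 1.52%, against 1.63% of all genes) and 0 were higher, against 1.58%. The 2 comparisons with control share the 3 control arrays. An F-test across the 3 conditions at p under 0.005 found 0 of the 66 genes, against 0.929% of all genes, and 2 had an F-test p under 0.05, the lowest being 0.00785 for Dcn. The ordinary F-test, which takes each gene's own spread, found 1 of the 66, Timp2.

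The 3 arrays of one condition all lay below the 3 of the other for 10 of the 66 genes (15.2%) in BMP24h against control, while 7.69% of all genes did so. They lay all above for 1 gene (1.52%), Adam10, against 5.95% of all genes. In BMP6h against control the counts were 4 below (6.06%, against 7.37%) and 3 above (4.55%, against 3.12%), and in BMP24h against BMP6h they were 8 below (12.1%, against 4.27%) and 1 above (1.52%, against 6.12%). The median log2 difference of the 66 genes was -0.06 in BMP24h against control, beside 0.01 over all genes, and -0.05 in BMP6h against control, beside -0.03 over all genes. In BMP24h against BMP6h it was -0.06, beside 0.03 over all genes, the widest gap of the 3 comparisons.

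**Figure D1:**
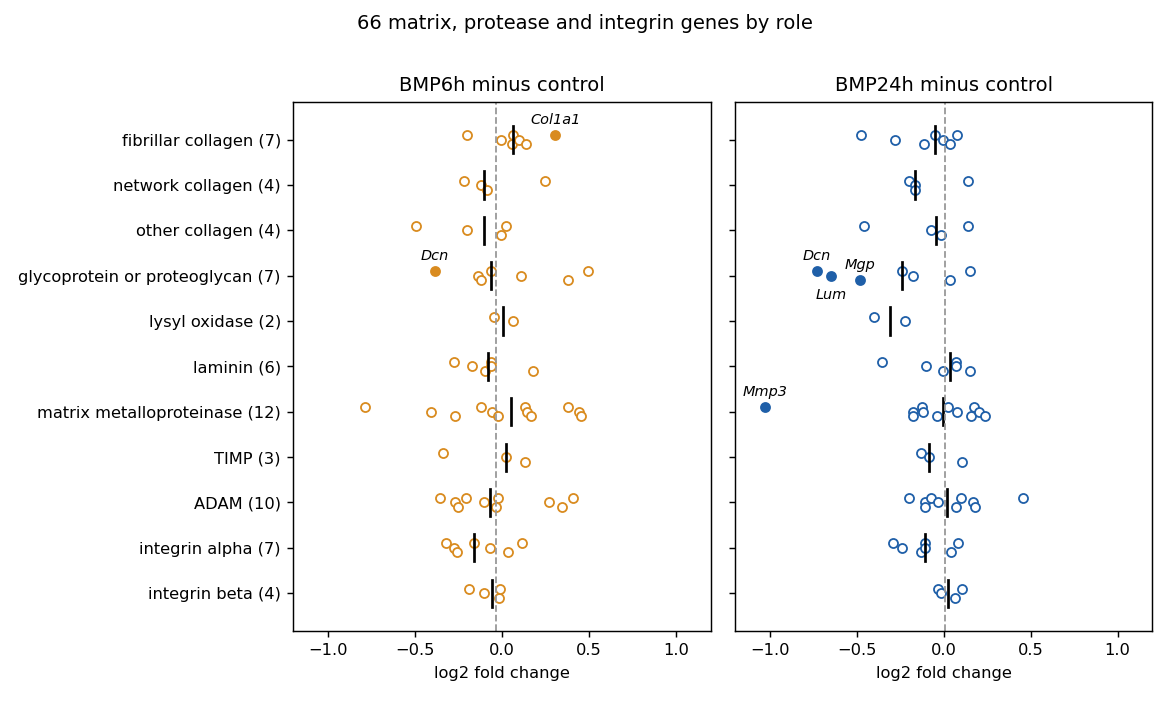
Log2 differences of the 66 genes from control, with 1 point per gene, grouped by role (number of genes in brackets), for BMP6h at the left and BMP24h at the right. Filled points pass the thresholds of the Methods, black bars are the median of each role and dashed lines the median of all 4736 genes. In BMP24h the points furthest to the left are Mmp3, Dcn, Lum and Mgp, and 63 of the 66 genes lie within 0.5 of 0.

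Promoter sequence from RefSeq (build GRCr8) was matched for 44 of the 66 genes. The last 100 bases before the annotated start are shown for 4 matched genes, Mmp3, Lum, Lama3 and Timp2, picked from those whose arrays separated in a comparison. They are not all of these, since every BMP6h array of Mmp10, also matched, was above every control array. Capitals mark matches on either strand to the AP-1 motif TGANTCA, which binds Fos and Jun dimers, and to the TATA box letters TATAAA. Both motifs were searched over the 250 bases before the start.
Mmp3, chr8:12925181-12925280, plus strand: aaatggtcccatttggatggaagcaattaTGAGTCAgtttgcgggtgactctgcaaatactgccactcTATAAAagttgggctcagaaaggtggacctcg
Lum, chr7:34245606-34245705, plus strand: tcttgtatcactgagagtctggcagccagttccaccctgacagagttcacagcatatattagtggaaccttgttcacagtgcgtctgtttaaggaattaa
Lama3, chr18:3952667-3952766, plus strand: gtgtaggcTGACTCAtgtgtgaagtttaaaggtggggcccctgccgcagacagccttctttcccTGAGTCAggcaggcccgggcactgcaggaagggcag
Timp2, chr10:104089215-104089314, minus strand: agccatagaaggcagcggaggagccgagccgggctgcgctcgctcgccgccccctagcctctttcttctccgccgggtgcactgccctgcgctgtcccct

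Mmp3 held the AP-1 letters starting at base -71 and the TATA letters starting at base -32. Lama3 held the AP-1 letters at -240, -92 and -36, the first of these lying outside the window shown. Lum and Timp2 held neither motif in 250 bases, and the GC share of the 100 bases shown was 46.0% for Mmp3, 44.0% for Lum, 61.0% for Lama3 and 71.0% for Timp2. The AP-1 letters were present for 6 of the 44 matched genes (13.6%), namely Mmp3, Mmp7, Mmp10, Mmp12, Mmp13 and Lama3, and in 6.34% of all 33469 promoters of the table. The TATA letters were present for 10 of the 44 (22.7%), against 12.9% of all promoters, and 6 of these 10 were MMPs. The 44 genes were counted at a single promoter each, but the share over all promoters counts every promoter, so the shares differ in unit. A match is a description of the letters and does not show that a factor binds.

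Dcn encodes decorin, a small leucine-rich proteoglycan that coats collagen fibrils and binds TGF-beta. It read 9.70, 9.60 and 10.02 in control, 9.41, 9.16 and 9.60 in BMP6h, and 9.10, 8.98 and 9.06 in BMP24h. The BMP24h arrays lay below every BMP6h and every control array, and the highest BMP6h array met the lowest control array. Dcn averaged 9.05 ± 0.06 in BMP24h and 9.78 ± 0.22 in control (SD, n = 3 each), a log2 difference of -0.73 (SE 0.17, 95% interval -1.11 to -0.34) (1.66-fold lower, adjusted p = 0.323 in limma). In BMP6h the log2 difference from control was -0.39 (SE 0.17, 95% interval -0.77 to -0.0021, adjusted p = 0.887 in limma), and it was -0.25 without control replicate 3 and -0.26 without BMP6h replicate 2, both short of the thresholds of the Methods, which it also missed in the ordinary analysis of variance. The difference of BMP24h from control was -0.60 in batch 1 and -0.79 in batch 2.

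Of the 16 genes with 2 or more probe sets, 4 (Col2a1, Dcn, Fn1 and Itga7) had probe sets over 0.5 apart in a comparison, and 10 had differences of both signs in BMP24h against control. Dcn had 4 probe sets, and they did not all read alike. The second brightest, Z12298cds_s_at, read 8.25, 8.20 and 8.15 in BMP24h, against 8.87, 8.55 and 9.23 in control (log2 difference -0.68, SE 0.21), yet 0.01 in BMP6h against control, where the brightest read -0.39. The third, rc_AI639233_s_at, differed by -0.82 in BMP24h (SE 0.38) and by -0.67 in BMP6h, with BMP6h replicate 2 at 6.65. The dimmest, X59859_r_at, differed by -0.01 in BMP24h (SE 0.18) and by -0.02 in BMP6h. So 3 of 4 probe sets read lower at 24 hr by 0.68 to 0.82, and at 6 hr 2 of the 4 did not differ by more than 0.02.

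Lum encodes lumican, a keratan sulphate proteoglycan of the same leucine-rich family as decorin. It read 8.51, 8.23 and 9.03 in control, 8.29, 8.56 and 8.56 in BMP6h, and 8.20, 7.72 and 7.91 in BMP24h. Every BMP24h array was below every other array, but BMP24h replicate 1, at 8.20, was close to control replicate 2, at 8.23. Lum averaged 7.95 ± 0.24 in BMP24h and 8.59 ± 0.41 in control (SD, n = 3 each; log2 difference -0.65, SE 0.23, 95% interval -1.18 to -0.11, adjusted p = 1 in limma). The difference from control was -0.31 in batch 1 and -0.82 in batch 2. It no longer passed the thresholds of the Methods in the ordinary analysis of variance (-0.65, as in limma), nor in limma without control replicate 3 (-0.41), BMP24h replicate 2 (-0.52) or BMP24h replicate 3 (-0.63).

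Mgp encodes matrix Gla protein, a calcification inhibitor that binds BMPs. It read 12.01, 12.12 and 12.09 in control, 11.86, 12.06 and 11.89 in BMP6h, and 11.73, 11.77 and 11.27 in BMP24h. The control arrays were close together and the BMP24h arrays were below all others, with replicate 3 the lowest by far. Mgp averaged 11.59 ± 0.28 in BMP24h and 12.07 ± 0.05 in control (SD, n = 3 each; log2 difference -0.48, SE 0.16, 95% interval -0.85 to -0.11, adjusted p = 0.972 in limma). The difference was -0.31 without BMP24h replicate 3, still past the thresholds of the Methods, and it was short of them without control replicate 2 (-0.46) and in batch 2 alone (-0.58).

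The other 4 glycoproteins did not separate by condition against control. Fn1, fibronectin, read 9.10, 9.39 and 8.87 in BMP24h and 9.24, 9.93 and 9.23 in BMP6h, against 9.22, 8.42 and 9.28 in control, so that 1 low control array and 1 high BMP6h array made most of its 0.49 log2 difference in BMP6h (95% interval -0.20 to 1.19). Its difference in BMP6h was 0.02 in batch 1 and 0.73 in batch 2, and over its 5 probe sets it ran from 0.0026 to 0.56. Fbln5, fibulin-5, which helps assemble elastic fibres, was 0.38 higher in BMP6h than in control (95% interval -0.08 to 0.84), with BMP6h replicate 2 at 7.77 and the other 2 at 7.20 and 7.05. Sparc, a collagen-binding protein, differed by -0.18 in BMP24h (95% interval -0.51 to 0.15), and its other 3 probe sets differed by -0.10 to -0.03. Postn, periostin, differed by -0.24 in BMP24h (95% interval -0.74 to 0.27), with BMP24h replicate 3 at 8.46 and the other 2 at 9.05 and 9.15. All 7 genes of this group had a lower mean in BMP24h than in BMP6h, by 0.11 to 0.52 on the log2 scale, and 38 of the 66 genes did (57.6%, against 43.3% of all genes). In batch 1 alone Sparc was higher in BMP24h (0.0032) and the rest lower, from -0.30 for Dcn to -0.005 for Postn. BMP6h replicate 2, which is in batch 2, was the highest BMP6h array for Fn1, Fbln5, Postn and Mgp.

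**Figure D2:**
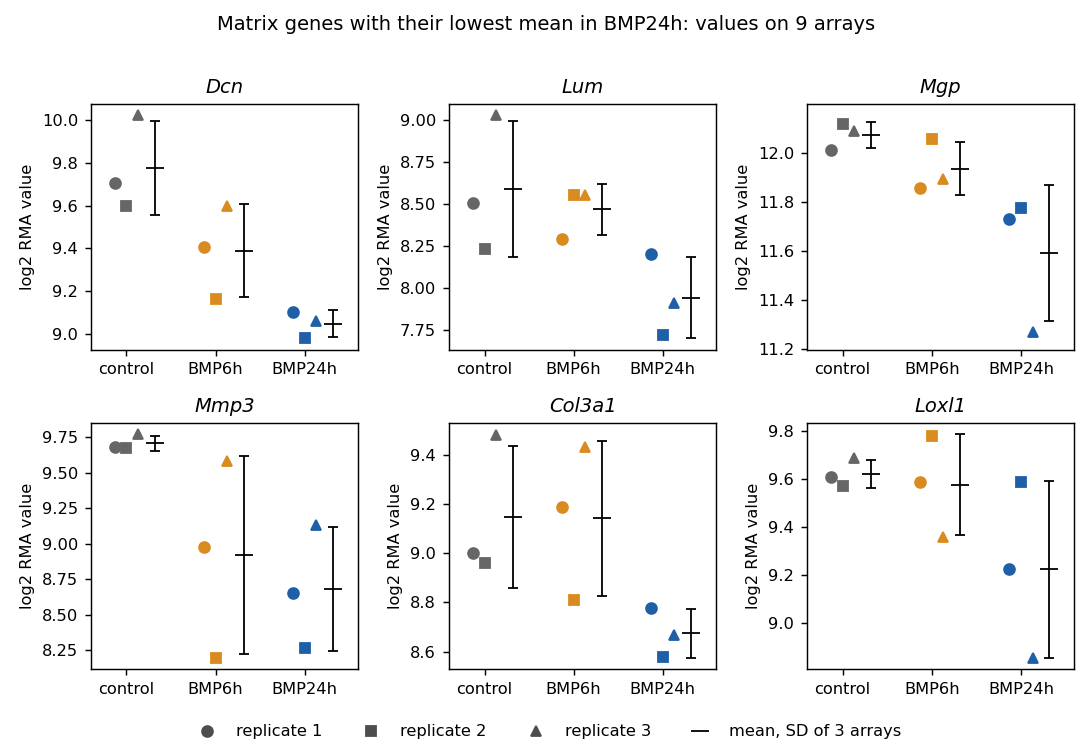
Log2 RMA value on each of the 9 arrays for Dcn, Lum, Mgp, Mmp3, Col3a1 and Loxl1 (brightest probe sets), with symbols for replicates and black bars for the mean and SD of the 3 arrays of a condition; each panel has its own scale. The BMP24h arrays are below all control arrays for every gene shown except Loxl1, where BMP24h replicate 2 reads 9.59.

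The fibrillar collagens, which form the tensile fibres of the matrix, did not share 1 pattern against control. Col3a1, the type III chain of loose connective tissue, read 9.00, 8.96 and 9.48 in control, 9.19, 8.81 and 9.43 in BMP6h, and 8.78, 8.58 and 8.67 in BMP24h. Its BMP24h arrays were below all others, and the mean in BMP24h was 0.47 below control (log2 difference -0.47, SE 0.21, 95% interval -0.96 to 0.01, adjusted p = 1 in limma). Its dimmer probe set M21354_s_at differed by -0.25 (SE 0.16), and BMP24h was below control on all its arrays.

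Col1a1, the main chain of type I collagen, read 10.53, 10.75 and 10.54 in BMP6h, against 10.31, 10.21 and 10.38 in control. Every BMP6h array was above every control array (log2 difference 0.31, SE 0.13, 95% interval 0.01 to 0.60, 1.24-fold, adjusted p = 0.887 in limma). In BMP24h it read 10.44, 10.46 and 10.24, which overlapped control (log2 difference 0.08, 95% interval -0.22 to 0.37). All 4 of its probe sets were higher in BMP6h than in control, by 0.10, 0.24, 0.31 and 0.37, and 2 of the 4 passed the thresholds of the Methods. For the brightest the difference was 0.23 to 0.36 when any 1 array was left out, and it stayed past those thresholds only without control replicate 3 or BMP24h replicate 3. Its partner chain in type I collagen, Col1a2, differed by 0.10 in BMP6h (95% interval -0.33 to 0.53) and by 0.00 in BMP24h (95% interval -0.43 to 0.43). Cultures were grown on collagen I protein, which an RNA array does not read.

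Col2a1, the cartilage collagen, had 2 probe sets that disagreed: the brighter, L48618_at, differed by -0.28 in BMP24h (SE 0.16) and -0.20 in BMP6h, and the dimmer, AJ224879_at, by 0.44 in BMP24h (SE 0.20) and 0.37 in BMP6h. The differences of Col5a2 and Col11a1 were small. Col5a2, a minor chain of type I fibrils, differed by 0.04 in BMP24h and 0.06 in BMP6h, and Col11a1 by -0.11 in BMP24h and 0.06 in BMP6h. All 7 fibrillar collagens had a lower mean in BMP24h than in BMP6h, by 0.02 to 0.47 on the log2 scale, against 43.3% of all genes. In batch 1 alone Col5a2 (0.30) and Col11a1 (0.03) were higher in BMP24h and the rest lower. Among the network and other collagens, Col15a1, a basement membrane zone collagen, read 5.42, 5.57 and 5.34 in BMP6h, against 5.84, 5.78 and 6.20 in control (log2 difference -0.50, SE 0.24, 95% interval -1.04 to 0.05). In BMP24h it read 5.61, 5.85 and 4.99, which overlapped control. Col8a1 was lower on all BMP24h than on all control arrays, but by only 0.16 (95% interval -0.41 to 0.09), and Col12a1 differed by 0.14 in BMP24h (95% interval -0.40 to 0.67).

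The lysyl oxidases cross-link collagen and elastin. Loxl1 read 9.23, 9.59 and 8.85 in BMP24h, against 9.61, 9.57 and 9.69 in control, a log2 difference of -0.40 (SE 0.20, 95% interval -0.87 to 0.07) that 1 BMP24h array did not share. Its dimmer probe set, rc_AA859805_at, read 7.80, 7.82 and 7.68 in BMP24h, against 8.29, 8.49 and 8.24 in control and 8.27, 8.18 and 8.33 in BMP6h. There the BMP24h arrays lay below all 6 others, and the difference from control was -0.57 (SE 0.12, 95% interval -0.85 to -0.29, adjusted p = 0.277 in limma). This probe set also passed the ordinary F-test of the Methods. The rule for 1 probe set per gene leaves it out of the counts above. Lox differed by -0.22 in BMP24h (95% interval -0.65 to 0.21), with BMP24h replicate 3 at 6.79 and the other 2 at 7.15 and 7.49, and its 3 dimmer probe sets differed by -0.21, 0.11 and 0.14.

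**Figure D3:**
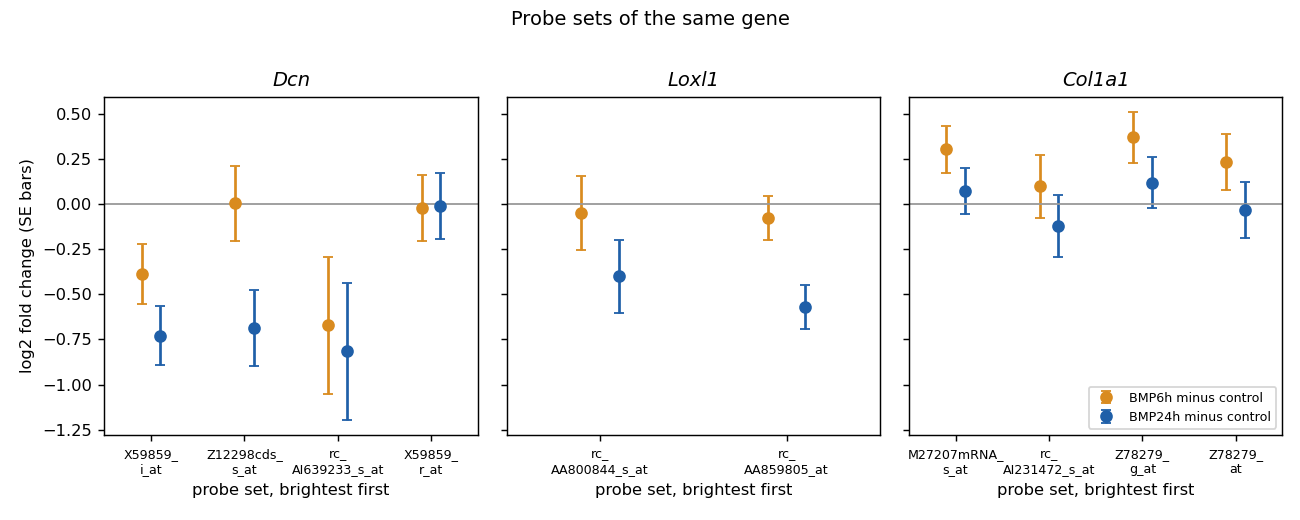
Log2 difference from control with its SE for every probe set of Dcn, Loxl1 and Col1a1, brightest at the left, in BMP6h and in BMP24h. In BMP24h 3 of the 4 Dcn probe sets lie between -0.82 and -0.68 and the dimmest at -0.01, both Loxl1 probe sets lie below 0, and all 4 Col1a1 probe sets lie above 0 in BMP6h.

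Of the proteases, Mmp3 had the largest difference of all 66 genes. It encodes stromelysin-1, a secreted protease that cuts proteoglycans, fibronectin and laminin and activates other MMPs. Mmp3 read 9.68, 9.68 and 9.77 in control, 8.98, 8.20 and 9.58 in BMP6h, and 8.65, 8.26 and 9.13 in BMP24h. All 6 BMP-7 arrays were below the 3 control arrays, which agreed within 0.05 (SD), and BMP-7 arrays spread over more than 1 log2 unit. Mmp3 averaged 8.68 ± 0.44 in BMP24h and 9.71 ± 0.05 in control (SD, n = 3 each; log2 difference -1.03, SE 0.36, 95% interval -1.86 to -0.20, 2.04-fold lower, adjusted p = 1 in limma), and it was -1.03 in batch 1 and -1.03 in batch 2. In BMP6h it averaged 8.92 ± 0.70 (log2 difference from control -0.79, SE 0.36, 95% interval -1.62 to 0.04). Without control replicate 1 or 3, or without BMP24h replicate 1 or 2, the BMP24h difference was -1.05 to -0.80 and did not pass the thresholds of the Methods. It also missed them, at -1.03, in the ordinary analysis of variance and in batch 2 alone.

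The other 11 MMPs did not pass the thresholds of the Methods in any comparison. Mmp2, a gelatinase that cuts basement membrane collagen, read 9.06, 8.99 and 9.27 in BMP24h, against 8.92, 8.58 and 9.31 in control (log2 difference 0.17, 95% interval -0.34 to 0.69). Mmp9, the other gelatinase, differed by -0.13 in BMP24h (95% interval -0.50 to 0.25), and Mmp14, a membrane-bound MMP that activates Mmp2, by 0.07 (95% interval -0.42 to 0.57). Mmp13, a collagenase, was the most variable of the 66 genes within conditions (pooled SD 0.558), because BMP6h replicate 2 read 7.68 and the other 8 arrays 5.92 to 6.42. Its difference in BMP6h was -0.30 in batch 1 and 0.83 in batch 2.

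Timp2, an MMP inhibitor that also takes part in activating Mmp2, was the steadiest of the 66 genes within conditions (pooled SD 0.022). It read 9.51, 9.51 and 9.50 in control, 9.65, 9.66 and 9.61 in BMP6h, and 9.36, 9.41 and 9.37 in BMP24h, so that the 3 conditions did not overlap in any comparison. The sizes were small: 0.13 in BMP6h against control, -0.13 in BMP24h against control and -0.26 in BMP24h against BMP6h (SE 0.10 each). The limma SE draws on the spread of all probe sets and exceeds the spread of these arrays, and adjusted p in limma was 0.887 for BMP6h against control, 1 for BMP24h against control and 0.939 for BMP24h against BMP6h. The ordinary F-test of the Methods, which does not draw on other probe sets, put Timp2 past its threshold. The fold between BMP24h and BMP6h was just short of the minimum of the Methods. Timp1 differed by 0.10 in BMP24h (95% interval -0.17 to 0.38), and Timp3 by -0.09 (95% interval -0.63 to 0.46) with BMP6h replicate 2 low, at 5.72.

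The ADAM family, some members of which shed receptors and ligands from the cell surface, gave 0 calls by the Methods. Adam10, the main sheddase of Notch, read 6.06, 6.11 and 7.11 in BMP24h, against 6.04, 6.06 and 5.81 in control. The groups do not overlap, but replicate 3 alone made most of the 0.46 log2 difference (95% interval -0.27 to 1.19), which was 0.02 in batch 1 and 0.67 in batch 2. Adam17, which sheds TNF, differed by -0.04 in BMP24h (95% interval -0.68 to 0.61), and in BMP6h it read 7.61 on replicate 2 and 6.76 and 6.48 on the other 2.

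Among the laminins, Lama3, an alpha chain of epithelial basement membranes, read 5.52, 5.39 and 5.39 in BMP24h, against 5.85, 6.27 and 5.78 in BMP6h. Each BMP24h array was below each BMP6h array (log2 difference -0.53, SE 0.19, 95% interval -0.98 to -0.09, adjusted p = 0.939 in limma). The control arrays, at 5.83, 6.05 and 5.50, reached down to the BMP24h arrays. The difference between BMP24h and BMP6h was -0.37 without BMP6h replicate 2, and there, as without BMP24h replicate 2 (-0.51) or BMP24h replicate 3 (-0.51), it missed the thresholds of the Methods. The other 5 laminin chains all had a higher mean in BMP24h than in BMP6h, by at most 0.24, as did 2686 of all 4736 genes. BMP6h replicate 2 was the lowest BMP6h array for each of these chains. In batch 1, which does not hold that array, their differences ran from -0.11 to 0.05. Lamb2, a beta chain also found at synapses, differed by 0.07 in BMP24h against control (95% interval -0.29 to 0.43), and Lamc1, the common gamma chain, by 0.07 (95% interval -0.21 to 0.35).

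Of the integrins, Itgb1, the beta chain shared by most collagen and laminin receptors, differed by -0.02 in BMP24h and by -0.02 in BMP6h against control (95% intervals -0.29 to 0.26 in both). It read 11.35, 11.25 and 11.17 in BMP24h and 11.14, 11.38 and 11.25 in BMP6h, against 11.30, 11.29 and 11.22 in control. Itga1, its partner in a collagen receptor, differed by 0.04 in BMP24h (95% interval -0.33 to 0.42). Itga7, a laminin-binding alpha chain, read 7.56, 7.68 and 7.56 in BMP24h, against 7.84, 8.07 and 7.76 in control, and all BMP24h arrays were lower (log2 difference -0.29, SE 0.16, 95% interval -0.66 to 0.08). Its probe set X65036_g_at did not show this (-0.06, SE 0.16), and its dimmest, X74293_s_at, differed by 0.16 (SE 0.28). Itgb4, the beta chain of the laminin receptor of hemidesmosomes, differed by 0.11 in BMP24h (95% interval -0.29 to 0.50).

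**Figure D4:**
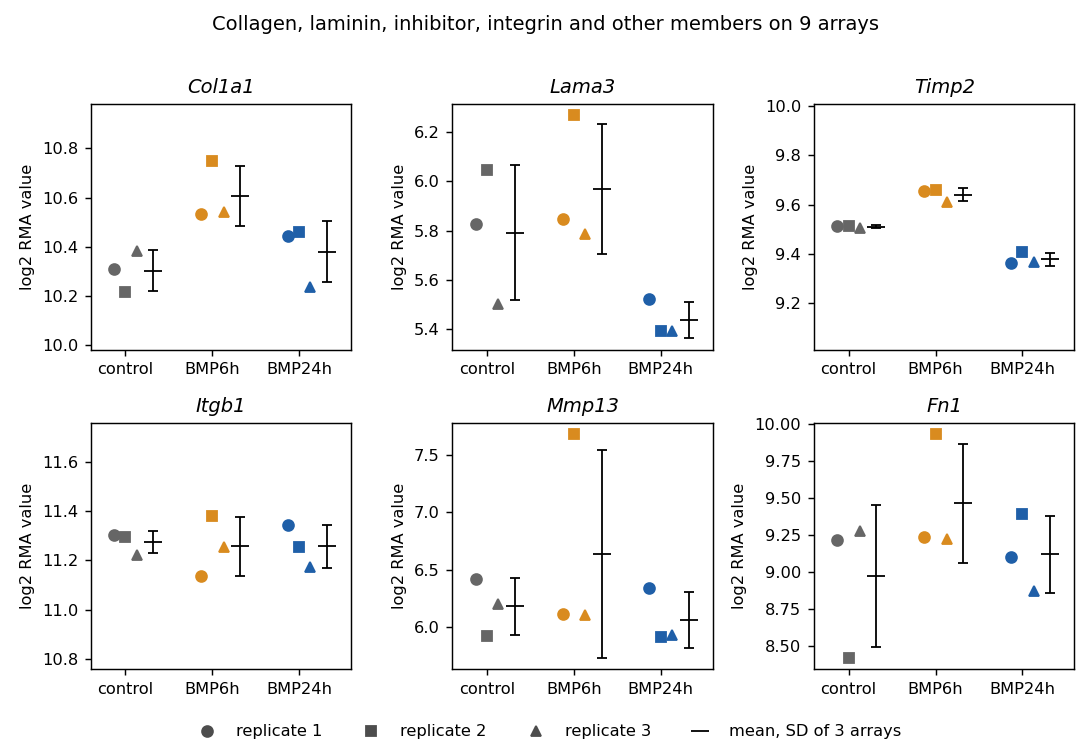
Log2 RMA value on each of the 9 arrays for Col1a1, Lama3, Timp2, Itgb1, Mmp13 and Fn1 (brightest probe sets), drawn as in the plot of Dcn and the other lower genes. Timp2 separates all 3 conditions by small steps, Itgb1 overlaps throughout, and the high BMP6h values of Mmp13 and Fn1 are replicate 2, at 7.68 and 9.93.

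A further list held 53 measured matrix and matrix-processing genes outside the 66, such as tenascins, syndecans, cathepsins and collagen-modifying enzymes. By the Methods 1 was lower in BMP24h than in control (against 2.05% of all genes), Sdc1, a cell surface heparan sulphate proteoglycan (log2 difference -0.36, SE 0.14). Another 1 was higher (against 1.77% of all genes), Ctsl, a lysosomal cysteine protease (0.35, SE 0.12). Ctsl read 10.08, 10.09 and 10.08 in BMP24h, against 9.68, 9.61 and 9.90 in control. In BMP6h against control 0 of the 53 passed, also at an unadjusted p under 0.05 in limma. The median log2 difference of the list in BMP24h was 0.01, with 26 lower and 27 higher. All BMP24h arrays lay below all control arrays for 8 of the 53, against 7.69% of all genes. They lay above for 3 of the 53, against 5.95% of all genes. A raised share of such genes was therefore not particular to the 66.

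Matrix is laid down mainly by fibroblasts and glia, and the arrays do not show which cells of a culture made these RNAs. In RNA from a whole culture, fewer cells of a type and less RNA per cell cannot be told apart. Fibroblast and mesenchyme markers outside the matrix were measured for 16 of 20 listed genes. By the Methods 2 of the 16 were lower in BMP24h than in control, Vim (-0.38, SE 0.15) and Fgfr1 (-0.53, SE 0.23), against 2.05% of all genes. None were higher, against 1.77% of all genes. Whatever the test, 10 of the 16 had a lower mean in BMP24h and 6 a higher one, by up to 0.32. All BMP24h arrays lay below all control arrays for 5 of the 16, against 7.69% of all genes. They lay above for 0, against 5.95% of all genes. Vim, vimentin, is also made by young neurons and glia. Pdgfra, a defining receptor of fibroblasts, read 6.00, 5.91 and 5.93 in BMP24h, against 6.23, 6.41 and 7.03 in control, and Pdgfrb differed by 0.00. The mean log2 value of the 16 markers was 8.10 to 8.15 in BMP24h and 8.23 to 8.29 in BMP6h, against 8.20 to 8.24 in control, so that BMP24h lay below control. Their summed linear value overlapped, at 21175 to 23656 in BMP24h and 21462 to 22808 in control. Their part in the lower Dcn, Lum, Mgp and Mmp3 was not tested.

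The mean log2 values of the other marker lists follow. Markers of satellite glia and Schwann cells (15 of 18 measured) averaged 6.84 to 7.08 in BMP24h and 6.91 to 7.00 in control, and 0 passed the Methods in either direction. Markers of endothelial and mural cells (8 of 14) averaged 5.96 to 6.08 in BMP24h and 6.11 to 6.64 in control, so that BMP24h lay below control, but their summed linear values overlapped, at 761 to 809 in BMP24h and 796 to 968 in control. By the Methods 1 of these 8 was lower, Kdr, a receptor of endothelial cells, against 2.05% of all genes, and 0 were higher, against 1.77%. Kdr read 4.92, 3.99 and 4.28 in BMP24h, against 4.76, 5.59 and 7.02 in control. Markers of macrophages and blood (10 of 15) averaged 7.03 to 7.13 in BMP24h and 6.83 to 7.10 in control. Neuron markers (16 of 20) averaged 10.55 to 10.88 in BMP24h and 10.81 to 10.86 in control. They summed to 56186 to 61990 in BMP24h and 61964 to 64931 in control. By the Methods 3 of these 16 were lower, Ddc, Mapt and Ina, against 2.05% of all genes, and 0 were higher, against 1.77%. RMA values hold no 0, so that the absence of a marker cannot be read from them.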

How the data were processed

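RNA of 9 pooled cultures, 3 per condition, was hybridised to Affymetrix Rat Genome U34A arrays. The authors made the deposited log2 values with RMA in Partek Genomics Suite 6.5 and removed the difference between the 2 processing batches, and the means of the 2 batches now lie within 6.7e-05 of each other for all probe sets. No 2 arrays were identical, and the version of RMA is not given in the sources used here. Arrays have no depth of reads, and precision here is limited by how many arrays there are. Of 8799 probe sets, 59 are controls, which were dropped. The annotation gives 1 gene for 7006 of the remaining 8740, several for 308 and none for 1426.

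A linear model of condition plus batch, which leaves 5 residual degrees of freedom, was fitted to all 8740 probe sets (limma 3.58.1, R 4.3.3), and p-values were adjusted by Benjamini-Hochberg over all of them. The intervals are from the same moderated fit. The thresholds of the Methods (unadjusted p under 0.05 and 1.2-fold, F-test p under 0.005) were applied to that fit. The fit was tested on simulated data. Per the Methods the experiment was run on 3 dissections, each giving 1 sample of every condition, so p-values measure the spread between dissections and arrays. The labels do not say which arrays share a dissection. Named genes were those past the thresholds, at most 8 a comparison, representatives of each role, and genes with 1 probe set past the thresholds and another that differed from it by over 0.5 or in sign (1 gene, Dcn). Genes and probe sets outside this rule were picked with their values in view. The 66 genes and all lists were chosen with earlier results of these data known. Motifs were counted in RefSeq GRCr8 promoters with Python.

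Alternatives were the ordinary analysis of variance, leaving out the batch term, a replicate block instead of the batch, batch 2 alone, the dimmer 50% of probe sets removed, quantile normalization repeated, median centring, an intensity trend, array weights (the gene-by-gene method, chosen after the default did not converge), the 2 compared conditions alone, averaging a gene's probe sets, and omitting each array in turn.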

Additional observations from a re-analysis of the deposited data

How the results depend on the processing

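No sign changed in 139 alternative values of the 7 log2 differences past the thresholds of the Methods, but many refits cannot alter a difference. Of the 139, 97 stayed past those thresholds. Dcn in BMP24h against control stayed past them in all 20 (-0.83 to -0.56), Mgp in 18 of 20 (-0.58 to -0.31), Lum in 16 (-0.84 to -0.31), Mmp3 in 14 (-1.27 to -0.80) and Lama3 in BMP24h against BMP6h in 15 of 19 (-0.64 to -0.33). Col1a1 (0.23 to 0.36) and Dcn (-0.50 to -0.20) in BMP6h against control stayed past them in only 7 of 20 each.

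The count of genes past the adjusted test stayed 0 under all alternatives except array weights, which called 2 in BMP24h against control (Dcn and Mmp3, with 3.63% of all genes called) and 1 in BMP24h against BMP6h (Col3a1, 2.39%). The weights ran from 0.093 for BMP6h replicate 2 to 5.764 for BMP24h replicate 1. They put 9 genes past the thresholds of the Methods in BMP24h against control (9.44% of all genes) and 7 in BMP24h against BMP6h (8.04%). These counts were 4 and 1 without weights, and the F-test count was 5 in place of 0. For BMP24h against control the ordinary analysis of variance and batch 2 alone each left 2 genes. For BMP6h against control, where the fit as described gave 2, the count was 1 with the ordinary analysis of variance, with quantile normalization repeated and with the 2 conditions alone. It was 0 with batch 2 alone, median centring and the mean of probe sets, and 4 with no batch term, where 3.04% of all genes passed. For BMP24h against BMP6h, in place of 1, the count was 5 with no batch term (4.48% of all genes) and with an intensity trend (3.72%). It was 4 with quantile normalization (3.42%) and 3 without the dimmer probe sets (5.69% of the genes left). With the 2 conditions alone and with the mean of probe sets it was 2. The F-test count was 1, in place of 0, with the ordinary analysis of variance (Timp2), no batch term, the dimmer probe sets removed, quantile normalization and an intensity trend. The cause of these shifts was not tested.

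Leaving out 1 array at a time gave 0 to 6 genes past the thresholds of the Methods in BMP6h against control, 3 to 7 in BMP24h against control, 1 to 4 in BMP24h against BMP6h, 0 to 1 by the F-test and 0 after adjustment. The 6 came without BMP6h replicate 3, where 6.95% of all genes passed, and the 7 without BMP6h replicate 2, where 5.74% did. In BMP6h against control the count was 2 without BMP24h replicate 3, and 0 or 1 without each array other than this one and BMP6h replicate 3. In BMP24h against BMP6h it was 4 without control replicate 3 (3.36% of all genes) or BMP24h replicate 2 (2.55%). The count was 3 without BMP6h replicate 2 (3.25%) or 3 (8.55%), and 2 without control replicate 2 (2.7%) or BMP24h replicate 1 (1.71%).

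The Methods took 1 sample of every condition from each of 3 dissections, but the labels, which give each condition replicates 1 to 3, do not say that a number marks a dissection. Deviations of same-numbered arrays from their condition means correlated at -0.74 to 0.53. Batch 1 holds only the replicate 1 arrays, and removing the batch difference makes their deviations cancel. These correlations therefore cannot decide whether a number marks a dissection. Because the labels do not say so, the numbers were not taken to pair the arrays. With a replicate block instead of the batch term, 5 genes passed the thresholds of the Methods in BMP6h against control, where 4.58% of all genes passed. In BMP24h against control 7 passed (the 4 above with Col3a1, Lama3 and Loxl1), where 5.26% of all genes did. In BMP24h against BMP6h 5 passed, where 4.2% of all genes did. With this block 1 passed the F-test and 0 passed after adjustment.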
